A study of Mus musculus with 6 samples.

Results

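The 10 genes described here mark the resident macrophages of bone marrow, and they were chosen by name as *Adgre1*, *Cd163*, *Siglec1*, *C1qa*, *C1qb*, *C1qc*, *Mrc1*, *Cd5l*, *Slc40a1* and *Spic*. Each name matched 1 of the 55401 gene identifiers in the count tables, and all 10 were among the 20636 genes tested. RNA was taken from whole tibias of 3 Atrx-cKO and 3 control mice at 8 weeks of age. Atrx-cKO mice were *Osterix-Cre; Atrx*f/y and controls were *Atrx*f/y, so every mouse was a male with the floxed X-linked allele and only the Atrx-cKO mice carried the transgene. *Osterix-Cre* drives a GFP-Cre fusion from the promoter of *Sp7*, a gene of preosteoblasts. The study describes its mice as kept on doxycycline, which silences this Cre, until 3 weeks of age. No library came from a mouse with *Osterix-Cre* and intact *Atrx*, and an effect of the transgene and an effect of *Atrx* loss cannot be told apart.

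Marrow macrophages engulf dying cells and the nuclei that erythroblasts expel, and they return the iron of worn red cells to the blood. Those at the center of erythroblastic islands carry F4/80 (*Adgre1*), the hemoglobin-haptoglobin receptor CD163, the sialic acid receptor CD169 (*Siglec1*) and VCAM1. Heme induces the ETS factor SPI-C (*Spic*), which is needed for the iron-recycling macrophages of spleen and marrow, and ferroportin (*Slc40a1*) exports the iron. C1q, built from the products of *C1qa*, *C1qb* and *C1qc*, opens the classical complement pathway and also tags dying cells for uptake. A further 18 core macrophage genes, among them *Csf1r*, *Cd68*, *Spi1* and *Trem2*, summed to between 1767 and 2088 CPM in the 6 libraries, which does not show in which cells the RNA of the 10 was made. Several of the 10 are not limited to macrophages, since *Mrc1* is also made by sinusoidal endothelium and *Slc40a1* by erythroblasts.

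The *C1q* genes lie side by side on the minus strand of chromosome 4 of GRCm38. *C1qb* runs from 136880129 to 136886187, *C1qc* from 136889804 to 136893065 and *C1qa* from 136895917 to 136898803, so that 3616 and 2851 bases separate neighbors and the cluster spans 18675 bases. Promoter windows of 250 bases before and 50 after the start site (RefSeq, GRCm38.p6) were matched by symbol for 6 of the 10 genes, *C1qb*, *C1qc*, *Cd5l*, *Cd163*, *Mrc1* and *Spic*. Those of *C1qb* and *C1qc* are printed because these genes had nearly the same pattern across libraries, and that of *Cd5l* because it varied most. Capitals mark GAGGAA, a core bound by ETS factors such as PU.1 and SPI-C, on either strand (TTCCTC in reverse). The windows are chr4:136886151-136886450 (minus strand) for *C1qb*, chr4:136892865-136893164 (minus strand) for *C1qc* and chr3:87357631-87357930 (plus strand) for *Cd5l*.
C1qb: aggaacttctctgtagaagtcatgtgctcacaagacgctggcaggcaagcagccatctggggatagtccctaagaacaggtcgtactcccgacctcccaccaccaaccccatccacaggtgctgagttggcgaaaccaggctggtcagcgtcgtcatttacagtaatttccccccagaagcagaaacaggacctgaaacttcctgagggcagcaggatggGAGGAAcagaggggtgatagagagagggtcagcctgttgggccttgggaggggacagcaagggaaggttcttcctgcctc
C1qc: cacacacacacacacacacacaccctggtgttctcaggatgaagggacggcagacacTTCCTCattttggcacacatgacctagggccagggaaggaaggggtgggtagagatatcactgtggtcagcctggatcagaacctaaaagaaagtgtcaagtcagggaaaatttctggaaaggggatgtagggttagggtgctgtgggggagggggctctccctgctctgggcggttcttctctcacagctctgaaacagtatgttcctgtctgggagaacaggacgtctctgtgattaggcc
Cd5l: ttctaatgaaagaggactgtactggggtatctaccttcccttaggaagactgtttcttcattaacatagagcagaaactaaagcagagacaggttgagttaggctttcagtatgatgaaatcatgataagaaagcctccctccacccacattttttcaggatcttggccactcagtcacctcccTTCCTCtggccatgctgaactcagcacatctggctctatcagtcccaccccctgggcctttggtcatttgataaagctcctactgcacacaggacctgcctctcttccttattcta

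GAGGAA was found in 4 of the 6 windows (*C1qb*, *C1qc*, *Cd5l* and *Mrc1*) and in 28.3% of all 32851 promoter windows. TGANNNNGC is a loose form of the core of the antioxidant response element, through which Bach1 and Nrf2 act. It was found in 3 of the 6 windows (*C1qb*, *C1qc* and *Cd5l*) and in 41.3% of all. The interferon-stimulated response element was found in 0 of the 6 and in 3.44% of all. These are matches of letters and no measure of binding.

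Library totals ranged from 50977777 to 70571655 reads on genes, and the 10 genes had between 591 and 14802 reads in every library, so counting error was small beside the spread between mice. Counts are given as CPM after TMM normalization (counts scaled to a common library size), in the order of replicates 1, 2 and 3. The exons of the 10 genes overlap no exon of another annotated gene. *Atrx* had 153, 166 and 171 CPM in Atrx-cKO and 174, 166 and 165 in control libraries, a count over the whole gene and the whole bone that does not check the genotypes. Control replicate 3 stood apart in skeletal muscle, with a summed 11697 CPM over 10 muscle genes against 696 to 2367 in the other 5 libraries. Control replicate 1 had the most erythroid RNA, 6493 CPM over 12 genes against 2533 to 5074. Over 9 osteoblast genes, mostly type I collagen, control replicates 2 and 3 reached 185844 and 167001 CPM, where the other 4 libraries had 109357 to 119003. Values without a library are given where leaving it out turned a direction or moved a value by much.

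None of the 10 macrophage genes differed between genotypes at an adjusted p under 0.05, where 0.0145% of all tested genes passed (quasi-likelihood F test of edgeR, Benjamini-Hochberg adjusted over 20636 genes). Their adjusted p values ran from 0.992 to 0.998, and DESeq2 also called 0 of the 10. At an unadjusted p under 0.05 edgeR and DESeq2 each had 1 of 10, *C1qa*, against 3.64% of all genes in edgeR (1.59% higher and 2.05% lower in Atrx-cKO). The log2 fold changes of Atrx-cKO over control ran from -0.053 for *Slc40a1* to 0.26 for *C1qa*, with 8 above and 2 below 0 and a median of 0.13. Over all tested genes the median was 0.0050 and 51.2% lay above 0. Without control replicate 3 the count above 0 was 5 of 10 and the median 0.0010, without Atrx-cKO replicate 2 the count was 6 of 10 and the median 0.068, and with library size alone all 10 lay above 0. Some lists of other cells also lay above 0, with 10 of 10 neutrophil genes (median 0.21) and 8 of 8 B cell genes (0.17). Endothelial genes had 7 of 7 above 0 (0.18) and monocyte genes 7 of 8 (0.12). Erythroid genes had 11 of 12 above 0 (0.084) and T and NK cell genes 6 of 8 (0.15). Osteoclast genes had 1 of 9 above 0 (-0.38), osteoblast genes 0 of 9 (-0.21) and adipocyte genes 3 of 6 (-0.064). Skeletal muscle genes had 1 of 10 above 0 (-1.51). Without control replicate 2 the B cell count was 1 of 8 and the erythroid count 0 of 12. Without control replicate 3 the monocyte count was 2 of 8, the T and NK cell count 4 of 8 and the muscle count 9 of 10. Without Atrx-cKO replicate 1 the neutrophil count was 6 of 10. The 95% intervals of all 10 macrophage genes lay within a 2-fold change in either direction, and those of 8 lay within 1.5-fold. Summed over the 10 genes the level was 903 ± 79.2 CPM (SD, n = 3) in Atrx-cKO and 842 ± 116 CPM (SD, n = 3) in control tibias, a difference smaller than either SD. In whole bone, fewer cells of a type and less RNA per cell cannot be told apart. With 3 libraries against 3 an exact permutation test of a single value cannot go below p = 0.1, so the fit across all genes was used.

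**Figure D1:**
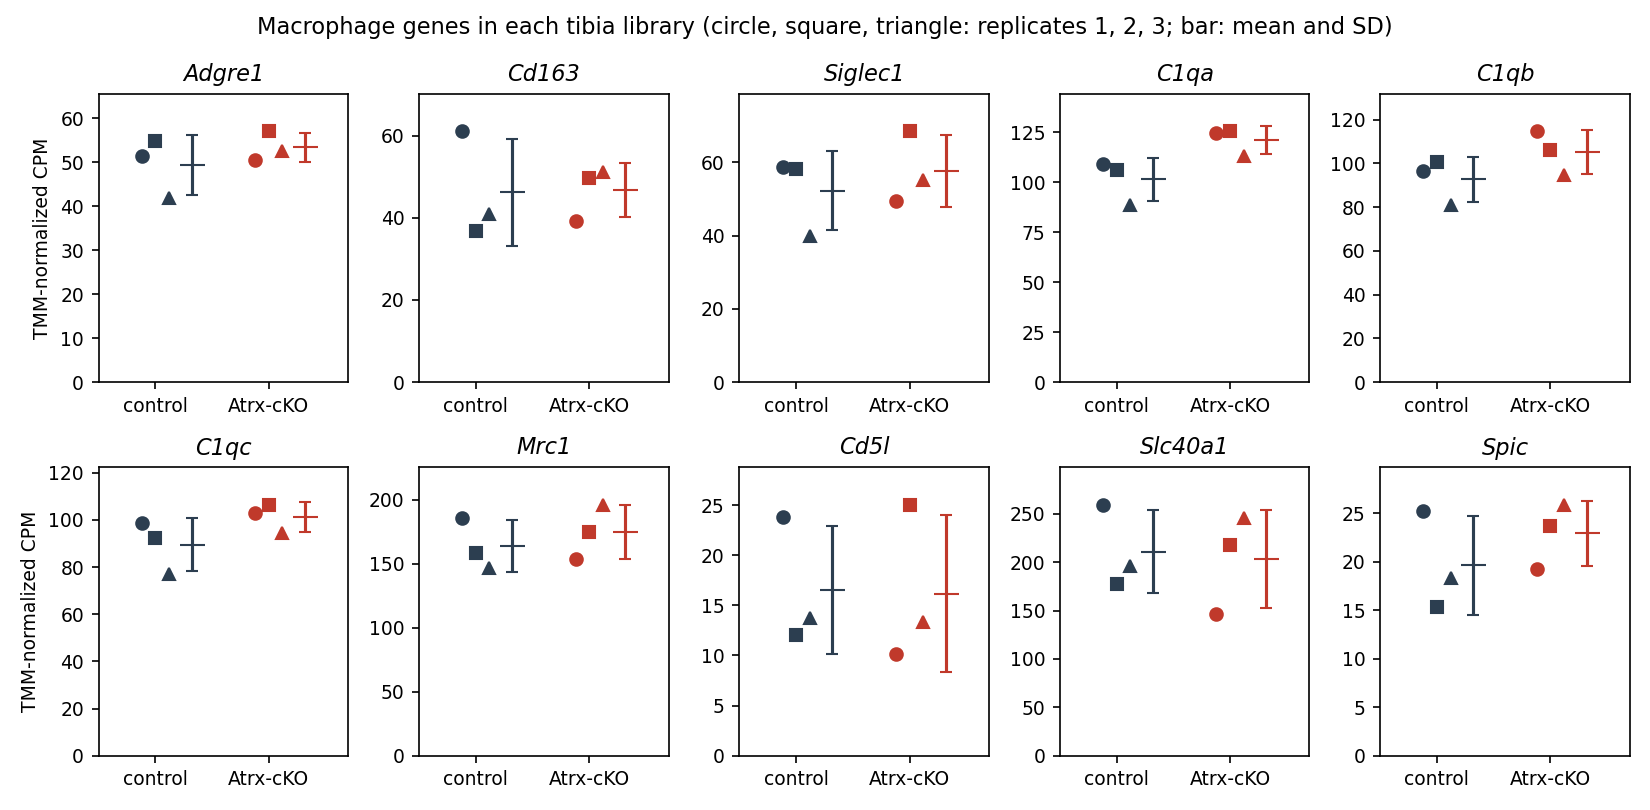
TMM-normalized CPM (vertical axis, from 0) of each of the 10 macrophage genes in the 3 control (dark) and 3 Atrx-cKO (red) libraries, with symbols for replicates 1, 2 and 3 and bars for the mean and SD. The groups overlap for every gene except *C1qa*, whose lowest Atrx-cKO value, 113, lies just above the highest control value, 109.

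The *C1q* subunit genes shared 1 pattern over the libraries, and their mean levels were higher in Atrx-cKO by 0.18 to 0.26 on the log2 scale. *C1qa*, which encodes the A chain, had 125, 126 and 113 CPM in Atrx-cKO and 109, 106 and 88.8 CPM in control libraries. The Atrx-cKO values lay above all controls, with the gap between the nearest libraries under 5 CPM. This was the only one of the 10 genes whose groups did not overlap, higher in Atrx-cKO, and 4.30% of all tested genes were separated in that direction (8.31% in either). The log2 fold change of *C1qa* was 0.26 (standard error, SE, 0.10, 95% interval 0.025 to 0.49, unadjusted p = 0.0341 and adjusted p = 0.992 in edgeR). Without control replicate 3 the log2 fold change was 0.16 and the unadjusted p 0.129 in edgeR.

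*C1qb*, the B chain gene, had 115, 106 and 94.9 CPM in Atrx-cKO and 96.6, 101 and 80.8 CPM in control libraries. Atrx-cKO replicate 3 lay below 2 of the controls, so the groups overlapped. *C1qc*, the C chain gene, had 103, 106 and 94.4 CPM in Atrx-cKO and 98.8, 92.5 and 77.1 CPM in control libraries. Here too Atrx-cKO replicate 3 lay among the controls, and control replicate 3 was the lowest library for all 3 subunit genes. The log2 fold changes were 0.18 for *C1qb* (SE 0.11, 95% interval -0.074 to 0.44) and 0.18 for *C1qc* (SE 0.11, 95% interval -0.071 to 0.43), each with an adjusted p of 0.992 in edgeR. Without control replicate 3, the library with the most muscle RNA, they were 0.082 and 0.069, and the part of muscle RNA in these values was not tested.

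The ratio between subunit genes does not depend on library size. On the log2 scale of counts per exonic kilobase, *C1qb* over *C1qa* was -0.23 ± 0.070 (SD over 6 libraries), and *C1qc* over *C1qa* was -1.11 ± 0.049 with the union of annotated exons. The *C1qc* value depends on its length, because the exon union of 1931 bases exceeds the longest transcript of 1203 bases, and with longest transcripts the ratio was -0.43. Between genotypes both ratios were slightly lower in Atrx-cKO, *C1qb* over *C1qa* by -0.076 (-0.27 ± 0.074 against -0.20 ± 0.050, SD, n = 3 each) and *C1qc* over *C1qa* by -0.078 (-1.15 ± 0.021 against -1.08 ± 0.034, SD, n = 3 each). The first difference is within about 1 SD and its groups overlapped. The second exceeded both SDs and its groups did not overlap, as was the case for 4 of the 45 ratios between the 10 genes and for 8.31% of single genes.

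Among all 10 genes, *Adgre1* varied least, with an SD of log2 CPM of 0.156 over the 6 libraries. F4/80, its product, is an adhesion receptor that defines most mouse macrophages. It had 50.5, 57.1 and 52.6 CPM in Atrx-cKO and 51.5, 54.9 and 41.8 CPM in control libraries. Only control replicate 3 stood below the rest, and the log2 fold change moved from 0.11 (SE 0.11, adjusted p = 0.992 in edgeR) to -0.0082 without it.

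*Siglec1* encodes CD169, a receptor for sialylated glycans that type I interferon raises. It had 49.4, 68.5 and 55.1 CPM in Atrx-cKO and 58.8, 58.1 and 39.8 CPM in control libraries. The groups overlapped widely, with Atrx-cKO replicate 2 the highest and control replicate 3 the lowest. *Siglec1* was at 0.14 on the log2 scale (SE 0.18, adjusted p = 0.992 in edgeR) over all libraries and -0.031 without control replicate 3.

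*Cd163* had 39.2, 49.8 and 51.1 CPM in Atrx-cKO and 61.1, 36.8 and 40.8 CPM in control libraries. The highest and the lowest library were both controls, and the log2 fold change was 0.014 (SE 0.20, 95% interval -0.45 to 0.47, adjusted p = 0.998 in edgeR). It was -0.045 without Atrx-cKO replicate 2 and -0.059 without Atrx-cKO replicate 3. Without control replicates 1, 2 and 3 in turn it was 0.27, -0.13 and -0.080. *Mrc1* encodes the mannose receptor CD206. It had 154, 175 and 196 CPM in Atrx-cKO and 186, 159 and 147 CPM in control libraries. The log2 fold change of *Mrc1* was 0.096 (SE 0.12, adjusted p = 0.992 in edgeR). It was 0.0030 without Atrx-cKO replicate 3, 0.010 without control replicate 3 and 0.20 without control replicate 1. The groups overlapped for both receptors. Endothelial RNA, which can also carry *Mrc1*, summed to 891 to 897 CPM over 7 genes in Atrx-cKO and 722 to 953 CPM in control libraries. All 7 endothelial genes had log2 fold changes above 0, with a median of 0.18 against 0.096 for *Mrc1*. Of the 7, 2 had an unadjusted p under 0.05 in edgeR, against 3.64% of all tested genes. For 3 the groups did not overlap, higher in Atrx-cKO, as for 4.30% of all tested genes. Without control replicate 2, and likewise without control replicate 3, 0 of the 7 had an unadjusted p under 0.05 in edgeR. The part of endothelial RNA in the *Mrc1* level was not tested.

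The genes of heme and iron recycling varied more between mice than between genotypes. *Slc40a1* had 147, 218 and 245 CPM in Atrx-cKO and 259, 178 and 196 CPM in control libraries. Its lowest library was Atrx-cKO replicate 1 and its highest control replicate 1, the library with the most erythroid RNA. The log2 fold change was -0.053 (SE 0.21, 95% interval -0.54 to 0.44, adjusted p = 0.994 in edgeR). It became 0.13 when Atrx-cKO replicate 1 was left out and 0.12 when control replicate 1 was.

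*Spic* had 19.3, 23.6 and 25.9 CPM in Atrx-cKO and 25.3, 15.4 and 18.3 CPM in control libraries. Control replicate 1 lay between the 2 highest Atrx-cKO libraries, and the other controls were the lowest libraries. For *Spic* the fold change was 0.22 on the log2 scale (SE 0.20, 95% interval -0.23 to 0.68, adjusted p = 0.992 in edgeR). It was 0.45 (adjusted p = 0.432 in edgeR) without control replicate 1 and 0.071 without control replicate 2.

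*Cd5l* encodes a secreted scavenger protein that is under the control of the oxysterol receptors LXR. It had 10.1, 25.0 and 13.3 CPM in Atrx-cKO and 23.8, 12 and 13.8 CPM in control libraries. Each group held 1 library near 24 to 25 CPM and 2 libraries under 14 CPM, a 2.48-fold range in all. On the log2 scale *Cd5l* was at -0.033 (SE 0.37, adjusted p = 0.998 in edgeR), and its 95% interval of 0.536-fold to 1.78-fold was the widest of the 10. The log2 fold change was 0.21, -0.51 and 0.087 without Atrx-cKO replicates 1, 2 and 3 in turn. Without control replicate 1 it was 0.33.

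**Figure D2:**
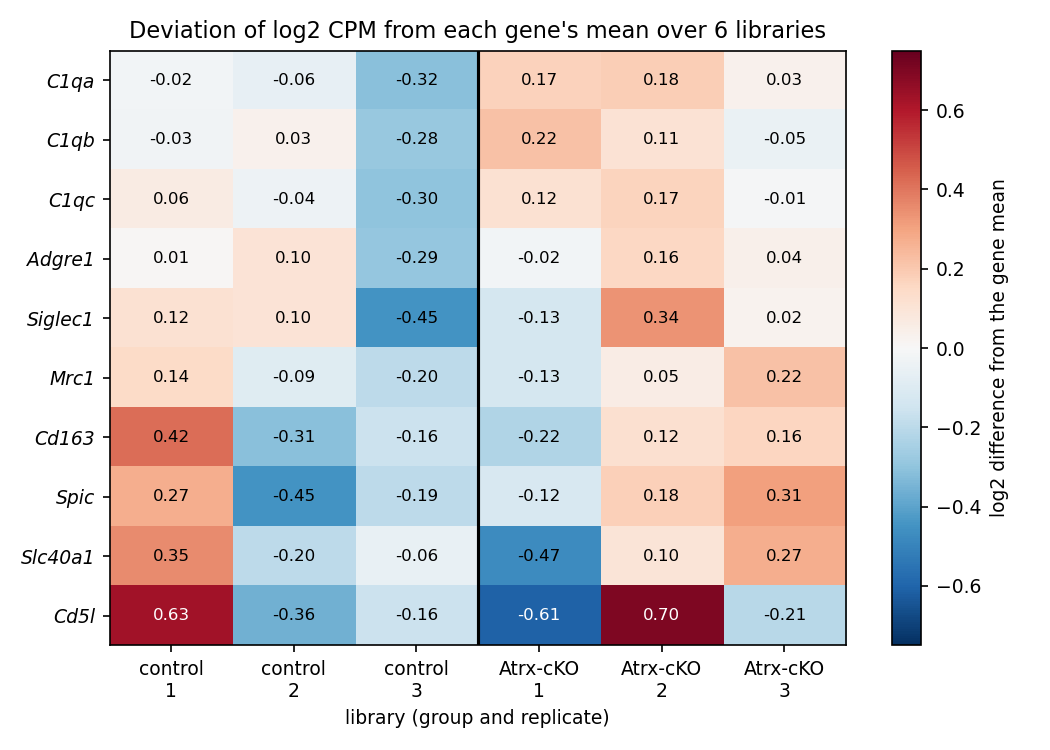
Deviation of log2 CPM from the mean of each gene over 6 libraries (color and number), with genes in rows and the 3 control and 3 Atrx-cKO libraries in columns. Control replicate 3 is the lowest column for the *C1q* genes, *Adgre1*, *Siglec1* and *Mrc1*. All genes but the *C1q* genes are above their mean in control replicate 1 and below it in Atrx-cKO replicate 1, *Adgre1* only barely. The *C1q* genes are above their mean in Atrx-cKO replicate 1.

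The 10 genes did not vary as a block. Control replicate 3 was the lowest library for 6 of them (*C1qa*, *C1qb*, *C1qc*, *Adgre1*, *Siglec1* and *Mrc1*), Atrx-cKO replicate 1 for *Cd5l* and *Slc40a1*, and control replicate 2 for *Cd163* and *Spic*. The highest library was Atrx-cKO replicate 2 for 5 genes, Atrx-cKO replicate 3 for *Mrc1* and *Spic*, control replicate 1 for *Cd163* and *Slc40a1*, and Atrx-cKO replicate 1 for *C1qb*. Each pair of genes was described by the SD of their log2 ratio over the 6 libraries. That SD also grows with the spread of each gene alone, which ran from 0.156 for *Adgre1* to 0.540 for *Cd5l*. It therefore does not rank how closely genes moved together. Of the 45 pairs, the lowest SD was 0.049, for *C1qa* and *C1qc*, and the 3 pairs within C1q were the lowest 3 of all. *Adgre1* followed with each *C1q* gene (0.092 to 0.122). Next came *Cd163* with *Spic* at 0.122, *Adgre1* with *Siglec1* at 0.127 and *Cd163* with *Slc40a1* at 0.144. The widest was *C1qb* with *Cd5l* at 0.576, and the median pair had 0.275. The log2 ratio of *Cd163* to *Spic* was 1.03 ± 0.047 in Atrx-cKO and 1.23 ± 0.062 in control (SD, n = 3 each), another of the 4 ratios whose groups did not overlap.

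Per length, *C1qa* was the highest of the 10 in every library, at 107 ± 13.1 CPM per exonic kilobase (SD over 6 libraries), followed by *C1qb* at 90.9 ± 10.5 and *C1qc* at 49.4 ± 5.36. *Mrc1* had 26.6 ± 3.05, *Slc40a1* 23.0 ± 4.70 and *Adgre1* 15.9 ± 1.63 CPM per exonic kilobase. *Cd163* at 8.51 ± 1.69, *Cd5l* at 8.03 ± 3.15 and *Siglec1* at 7.69 ± 1.35 were not ordered beyond their spread, since *Cd163* exceeded *Cd5l* in 4 of 6 libraries and *Cd5l* exceeded *Siglec1* in 3 of 6. *Spic* had the lowest mean at 5.54 ± 1.11 and lay below *Siglec1* in 6 of 6 libraries. This last place depends on the length used, since with longest transcripts *Spic* had 9.29, *Siglec1* 8.60 and *Cd5l* 8.03 CPM per kilobase. *Mrc1* stood above *Slc40a1* in 6 of 6 libraries, but with longest transcripts the order turned, with *Slc40a1* at 52.7 and *Mrc1* at 31.5 CPM per kilobase, because the exon union of *Slc40a1* is 9000 bases and its longest transcript 3928.

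**Figure D3:**
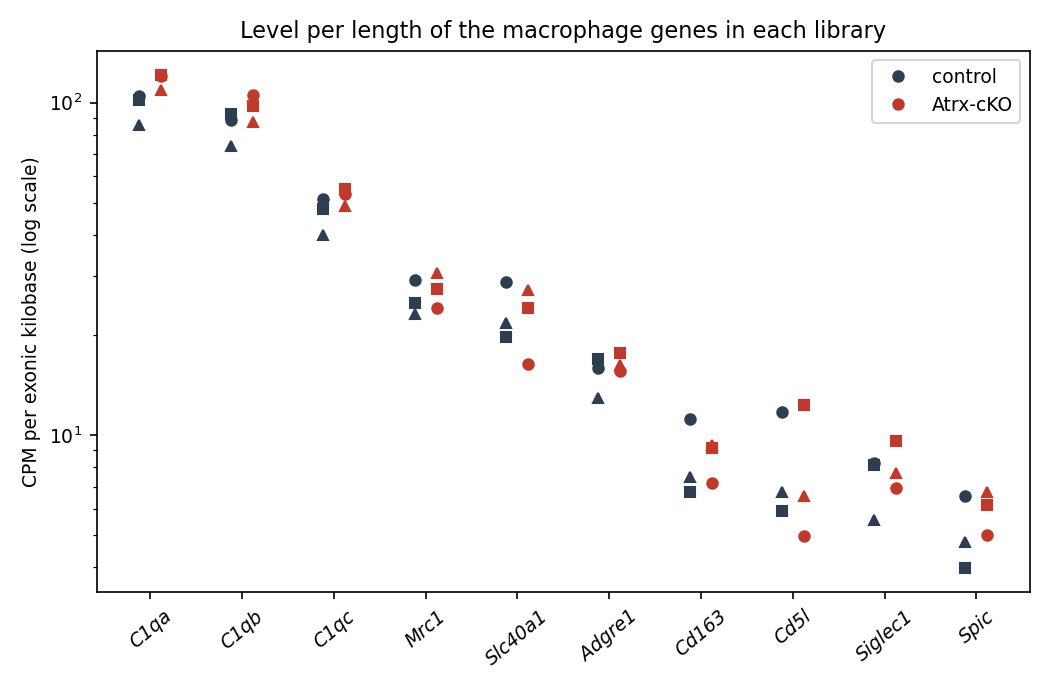
Level per length (CPM per kilobase of the exon union, log axis) of the 10 macrophage genes, ordered by their mean, in control (dark) and Atrx-cKO (red) libraries, with circles, squares and triangles for replicates 1, 2 and 3. The *C1q* genes are the top 3 in both genotypes, and *Cd163*, *Cd5l* and *Siglec1* interleave.

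Related genes were taken from 6 lists, and 0 of their members passed at an adjusted p under 0.05 in edgeR. Of the 18 core macrophage genes, 14 had log2 fold changes above 0 and 4 below, with a median of 0.087. Without control replicate 3 only 7 of the 18 lay above 0 and the median was -0.0082. The largest positive value was that of *Fcgr1*, the high-affinity IgG receptor, at 0.51 (SE 0.27, adjusted p = 0.992), which ran from 0.26 without control replicate 3 to 0.84 without control replicate 2. *Csf1r*, the receptor through which CSF1 sustains macrophages and osteoclast precursors, had 250, 235 and 267 CPM in Atrx-cKO and 299, 295 and 289 CPM in control libraries. All 3 Atrx-cKO values lay below the controls, as for 4.01% of tested genes, with a log2 fold change of -0.23 (SE 0.084, unadjusted p = 0.0256, adjusted p = 0.992 in edgeR). Its sign was opposite to that of *C1qa*, and it ran from -0.28 to -0.20 without each library in turn. Osteoclasts also express *Csf1r*. The summed level of 9 osteoclast genes was 3029 ± 372 CPM (SD, n = 3) in Atrx-cKO and 3650 ± 821 CPM (SD, n = 3) in control. Of the 9, 8 had log2 fold changes below 0, with a median of -0.38. An unadjusted p under 0.05 in edgeR was reached by 1, against 3.64% of all tested genes. The part of osteoclast RNA in the *Csf1r* value was not tested.

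Of 18 scavenger and dead-cell uptake genes, 12 had log2 fold changes above 0, with a median of 0.098. Without Atrx-cKO replicate 2 the count was 9 and the median -0.018. *Timd4*, a phosphatidylserine receptor of resident macrophages, had 4.16, 8.23 and 1.66 CPM in Atrx-cKO and 14.2, 6.11 and 7.08 CPM in control libraries. The groups overlapped, and the log2 fold change of -0.96 (SE 0.55, adjusted p = 0.992 in edgeR) ran from -1.66 to -0.49 without each library in turn. *Msr1*, a scavenger receptor, had the largest positive value at 0.42 (SE 0.29). It was at 0.078 without Atrx-cKO replicate 1, which had 19.1 CPM against 8.36 to 13.5 in the other libraries. *Pros1*, protein S, which bridges dying cells to the receptor MERTK, was at 0.20 (unadjusted p = 0.0302, adjusted p = 0.992). *Pros1*, like *Cp*, *Heph*, *Serping1*, *Rsad2* and *Bst2* below, was named after its value was seen.

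Of 22 tested genes of heme and iron handling, 8 had log2 fold changes above 0 and the median was -0.014. With library size alone 18 lay above 0 (median 0.052), and without control replicate 1 the count was 14 (median 0.046), so the list had no stable direction. The 2 with an unadjusted p under 0.05 in edgeR, against 3.64% of all tested genes, were *Cp* and *Heph*, both ferroxidases. Ceruloplasmin (*Cp*) had 408, 439 and 406 CPM in Atrx-cKO and 324, 348 and 306 CPM in control libraries, a log2 fold change of 0.36 (SE 0.090, unadjusted p = 0.00456, adjusted p = 0.992). Hephaestin (*Heph*) had 30.4, 33.8 and 38.8 CPM in Atrx-cKO and 26.0, 25.0 and 28.5 CPM in control libraries, a log2 fold change of 0.37 (SE 0.11, unadjusted p = 0.0107, adjusted p = 0.992). In both, every Atrx-cKO library exceeded every control, as for 4.30% of all tested genes. Without each library in turn the log2 fold change ran from 0.30 to 0.41 for *Cp* and from 0.28 to 0.46 for *Heph*. *Slc40a1* itself had no such separation. *Hmox1*, heme oxygenase, had 138, 155 and 125 CPM in Atrx-cKO and 204, 98.3 and 117 CPM in control libraries, with control replicate 1 the highest, as for *Cd163* and *Slc40a1*. *Hp*, haptoglobin, had the largest positive log2 fold change of the list at 0.42 (SE 0.26) and *Tfrc*, the transferrin receptor, the lowest at -0.11 (SE 0.15). *Hp* was at 0.081 without Atrx-cKO replicate 1, which had 540 CPM against 217 to 325 in the other libraries, and *Tfrc* was at 0.042 without control replicate 1.

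Of 21 tested complement genes other than C1q, 15 had log2 fold changes above 0, with a median of 0.11. The median was 0.050 without control replicate 3, and with library size alone 20 of the 21 lay above 0. *C1ra* and *C1s1*, the proteases that C1q activates, were at 0.097 and -0.038. *Serping1*, the C1 inhibitor, had 244, 274 and 217 CPM in Atrx-cKO and 191, 213 and 149 CPM in control libraries. The nearest values of the 2 groups, 217 and 213, differed by less than the spread within either group, and the log2 fold change was 0.41 (SE 0.15, unadjusted p = 0.0253, adjusted p = 0.992 in edgeR), or 0.27 without control replicate 3. The extremes of the list were *Cr2* at 0.61 (SE 0.32), with 0.40 without control replicate 3, and *Cfd* at -0.46 (SE 0.36), with -0.15 without Atrx-cKO replicate 1.

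The growth factors and adhesion molecules that keep macrophages in place were near even. *Csf1* had 147, 137 and 148 CPM in Atrx-cKO and 145, 137 and 140 CPM in control libraries, a log2 fold change of 0.032 (SE 0.074). *Il34*, the other ligand of the receptor, was at -0.00047. *Vcam1* was at 0.17 (SE 0.19), *Icam1* at 0.17 and *Itgav* at -0.17, the latter 2 being the extremes of the 15 tested genes of this list. *Icam1* was at 0.0030 without Atrx-cKO replicate 1 and *Itgav* at -0.036 without control replicate 3. Of the 15, 8 lay above 0 over all libraries, and 4 to 11 did without each library in turn.

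All 14 interferon-stimulated genes had log2 fold changes above 0, with a median of 0.38. So did 51.2% of all tested genes and every gene of the neutrophil, B cell and endothelial lists, but only 1 of 9 osteoclast genes. Of the 14, 2 had an unadjusted p under 0.05 in edgeR, against 3.64% of all tested genes, *Rsad2* at 0.54 and *Bst2* at 0.47, both with an adjusted p of 0.992 in edgeR. *Zbp1* had the largest at 0.66, or 0.34 without control replicate 3. *Rsad2* was at 0.35 without the same library, and *Bst2* at 0.26 without Atrx-cKO replicate 2. Control replicate 3, the lowest library for *Siglec1*, was also the lowest for the list, with 199 summed CPM against 330 and 355 in the other controls and 353, 465 and 366 in Atrx-cKO. Without control replicate 3 the median was 0.12, 12 of the 14 lay above 0 and 0 had an unadjusted p under 0.05 in edgeR. Without Atrx-cKO replicate 2 the median was 0.20, and without control replicate 2 it was 0.61.

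**Figure D4:**
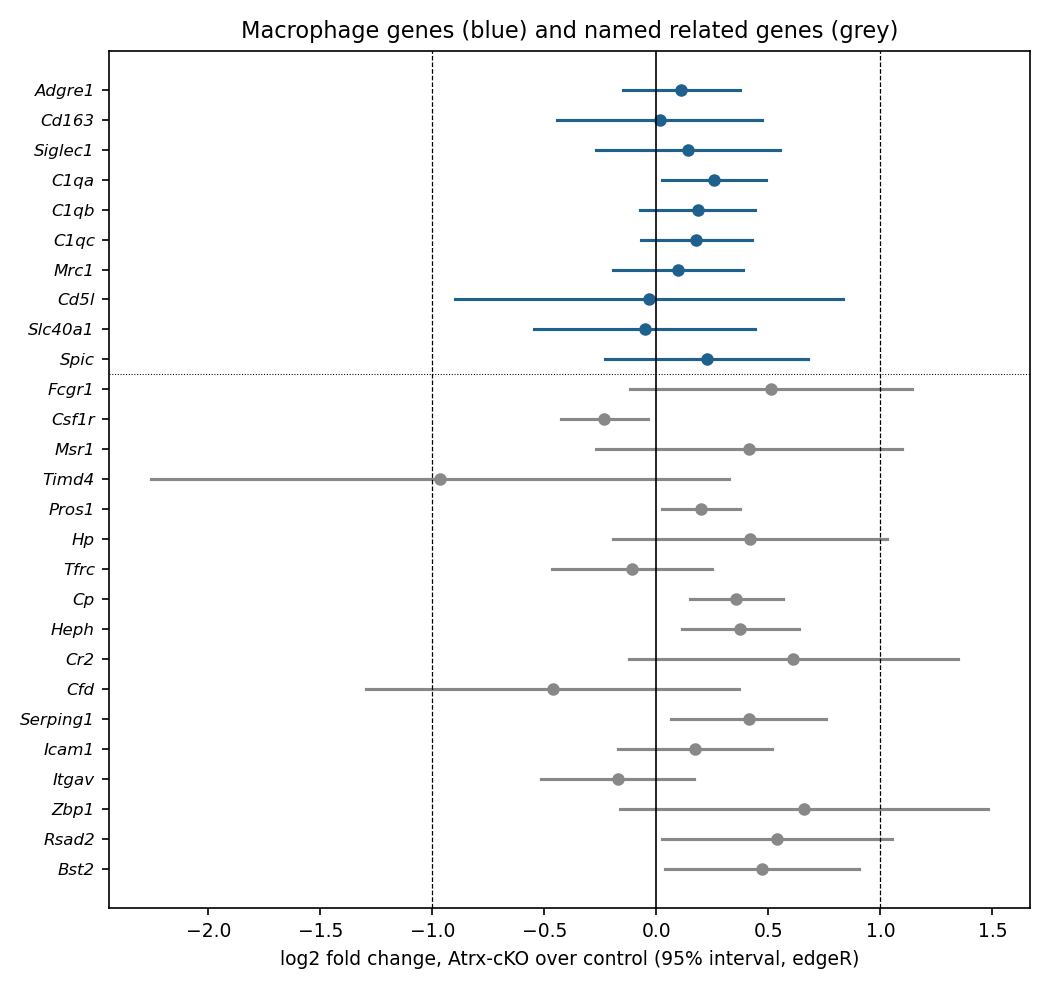
Log2 fold change of Atrx-cKO over control with its 95% interval from edgeR (horizontal axis) for the 10 macrophage genes (blue) and the named related genes (grey), with dashed lines at a log2 fold change of 1 in size. Every blue interval stays inside the dashed lines, and *C1qa* is the only blue gene whose interval lies above 0.

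The other marrow cells give the setting of these values. Monocyte genes summed to 2402 ± 204 CPM (SD, n = 3) in Atrx-cKO and 2437 ± 271 CPM (SD, n = 3) in control, and 18 core macrophage genes to 1940 ± 52.0 CPM and 1938 ± 162 CPM. Erythroid genes had 4494 ± 576 CPM and 4052 ± 2135 CPM, so the controls spread far more. Neutrophil genes had 10794 ± 2294 CPM and 9293 ± 1656 CPM, and B cell genes 295 ± 47.3 CPM and 259 ± 72.9 CPM. Each difference was smaller than the larger SD. Atrx-cKO replicate 1 had 5074 CPM of erythroid genes, the second highest of the 6 libraries, yet the lowest *Slc40a1* and *Cd5l*. The part of other cell types in the macrophage values was not tested.

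**Figure D5:**
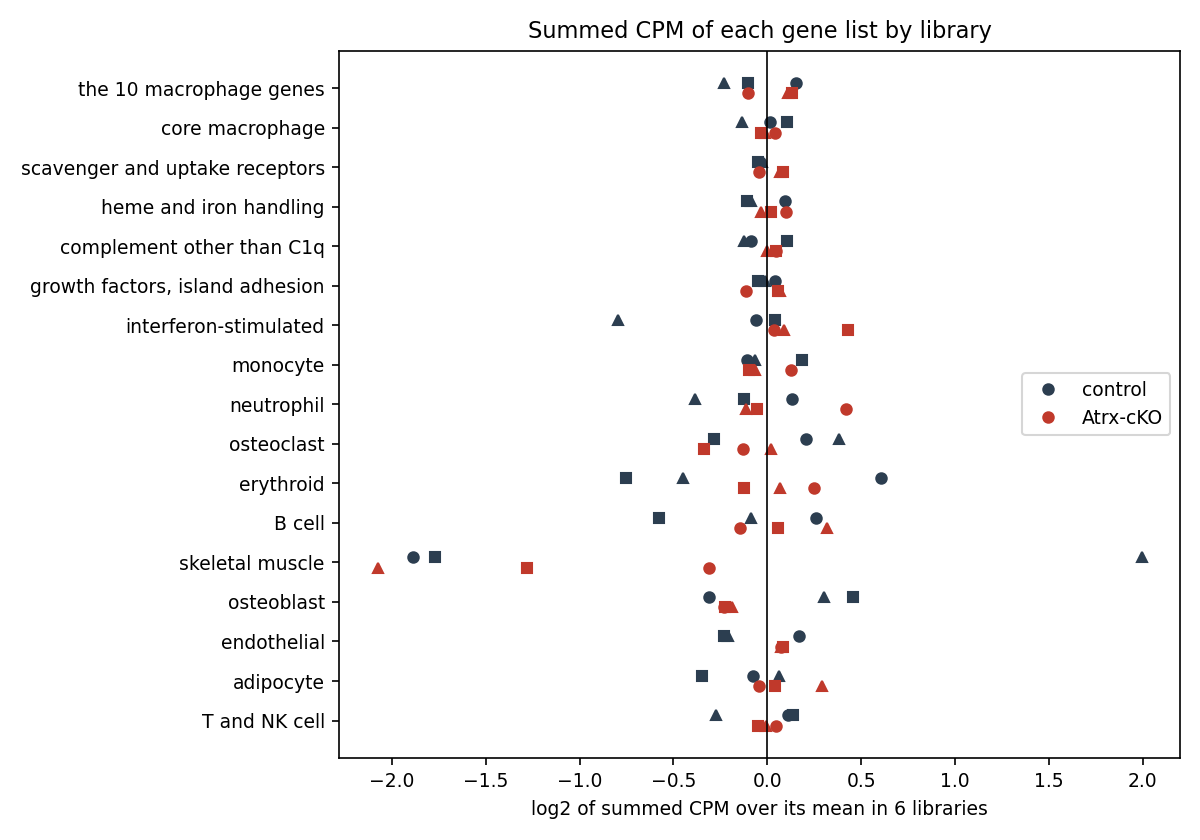
Summed CPM of each gene list in each library, as the log2 ratio to its mean over 6 libraries (horizontal axis), for control (dark) and Atrx-cKO (red) with circles, squares and triangles for replicates 1, 2 and 3. The sum over the 10 macrophage genes runs from 744 to 971 CPM. This is a 1.30-fold range, against 1.18-fold for the core macrophage genes and 2.56-fold for the erythroid genes. Skeletal muscle in control replicate 3 lies far to the right at 11697 CPM.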

How the data were processed

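RNA was isolated from snap-frozen tibias, and polyA-selected libraries were sequenced as paired ends by GENEWIZ. The authors deposited raw read counts per gene, 1 table per library, with 5 summary entries that entered neither library sizes nor tests. These entries, mostly reads on no feature (51.6% to 52.4% of each table), left 42.8% to 43.8% on genes. The submitters' processing notes name GRCm38 and DESeq2, and the aligner and counting program are not given in the sources used here. Names, positions and exon lengths came from GENCODE M21 (GRCm38), which named 55141 of 55401 identifiers.

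Groups and replicate numbers came from the sample titles. Counts were normalized by TMM, filtered by filterByExpr and compared with edgeR 4.0.16 (glmQLFit, glmQLFTest, genotype alone) in R 4.3.3, and p values were adjusted by the Benjamini-Hochberg method over all 20636 tested genes. Standard errors were the log2 fold change over the root of the F statistic, and 95% intervals used the t distribution with the moderated degrees of freedom. DESeq2 1.42.0 served as the alternative test. Other alternatives were the scaling, the filter, the replicate block and leaving out each library. On simulated counts for 20362 genes with 200 changed, the edgeR fit recovered 185 with 12 false calls. The simulation gave every gene the same spread and used log2 fold changes of at least 1 in size. The 10 macrophage genes reached at most 0.26, so it does not show whether changes of that size would be found between these mice. The p values set the genotype difference against the spread between these libraries. The labels do not name litters or batches, and effects of either cannot be told apart from that spread or that difference.

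The members and lists were chosen with earlier results of these data known. Genes named from related lists were those with the largest positive and negative log2 fold change at a mean of at least 1 CPM, any at an adjusted p under 0.05, and the 5 genes closest in pattern to the members. Those with only an unadjusted p under 0.05, and genes given for background, were named after their values were seen.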

Additional observations from a re-analysis of the deposited data

How the results depend on the processing

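Over the 14 alternative settings, 0 of the 10 macrophage genes passed at an adjusted p under 0.05, and 126 of 140 log2 fold changes kept their sign, with adjusted p values from 0.432 to 1. With library size alone, *Cd5l* was at 0.021 and *Slc40a1* at 0.010 in place of values just below 0, a scaling that moved the median of all genes by 0.072. Without each library in turn, the log2 fold change ran from -0.0082 to 0.19 for *Adgre1*, -0.13 to 0.27 for *Cd163*, -0.031 to 0.24 for *Siglec1*, -0.51 to 0.33 for *Cd5l* and -0.21 to 0.13 for *Slc40a1*. For *C1qa* it stayed between 0.16 and 0.31, and the unadjusted p of *C1qa* in edgeR ran from 0.024 to 0.129, under 0.05 only without Atrx-cKO replicate 3 or control replicate 1. The median of the 10 ran from 0.0010 (without control replicate 3) to 0.24 (without control replicate 1), and the summed difference from 3.41 to 124 CPM. From 1 to 3 genes had groups that did not overlap. The count was 3 without Atrx-cKO replicate 3 or control replicate 1, where groups of 2 and 3 separate more easily. The share of all tested genes separated in those settings was not counted, so the 3 cannot be set against it. With longest transcripts the *C1qc* to *C1qa* log2 ratio was -0.43. Of the related genes, *Tfrc* ran from -0.23 to 0.042 without each library and changed sign without control replicate 1.

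Replicate numbers were not treated as pairs: the deviations of libraries that share a number had correlations of -0.025, 0.062 and -0.071. In a fit with the replicate block, 0 of the 10 genes passed, the median log2 fold change was 0.14, and *C1qa* was at 0.26 (adjusted p = 0.974 in edgeR).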

Other observations

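Values follow for 4 genes of resident macrophages, chosen after they were seen. *Vsig4*, a complement receptor of liver macrophages, had 0.0342, 1.03 and 0.611 CPM in Atrx-cKO and 0.421, 0.300 and 0.378 CPM in control libraries. *Marco*, a scavenger receptor of alveolar and splenic marginal zone macrophages, had 0.410, 0.701 and 0.204 CPM in Atrx-cKO and 1.21, 0.210 and 0.588 CPM in control libraries. Both genes varied widely within each genotype and their groups overlapped. *Folr2* ranged from 2.17 to 3.50 CPM and *Lyve1* from 1.11 to 1.83 CPM over the 6 libraries.

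The mean log2 CPM of the 10 macrophage genes was compared with the log2 CPM of 16161 other genes with a mean of at least 1 CPM over the 6 libraries, which share their normalization. The 5 genes closest in pattern were *Sntb1* (Pearson r = 0.991), *Frat1* (r = 0.991), *Ccdc77* (r = 0.990), *Khnyn* (r = 0.990) and *Otud5* (r = 0.985). These are the top of a long ranking over 6 points, given as a description with no test. Their own log2 fold changes of Atrx-cKO over control ran from 0.028 to 0.14, and 0 of the 5 passed at an adjusted p under 0.05 in edgeR (adjusted p 0.992 to 0.994).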
